A study of Mus musculus with 28 samples.

Results

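The 8 aquaporins Aqp1, Aqp3, Aqp4, Aqp5, Aqp7, Aqp8, Aqp9, and Aqp11 were examined by RNAseq in mouse molar tooth germs sequenced 1 tooth at a time. They were picked by symbol from the 52636 genes of the HTSeq count table, because Aqp3 rises from stage to stage while Aqp5 stays near 0, so that the stage values of these 2 genes chose the set and are given as a description without a test. The teeth were first molars of wild type C57BL/6JOlaHsd mice, taken at the bud (E13), cap (E14), and bell (E16) stages, with no treatment at any stage. There were 7 teeth from 7 embryos at E13, 7 teeth from 6 embryos at E14, and 7 teeth from 5 embryos at E16. A second table, with counts estimated by salmon, adds 6 teeth from 6 embryos, whose age the labels give as E15.

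The HTSeq totals were between 17814073 and 27115729 counts per tooth over the 21 teeth, and the E15 totals between 17572427 and 22792374. Each library is a whole tooth germ, with the epithelium, the mesenchyme, vessels, and blood that it holds, and all 10 epithelial and all 8 dental mesenchyme markers examined had counts at each stage. A germ with fewer cells of a type and a germ with less RNA per cell cannot be told apart in such libraries. The left tooth of embryo 3 at E16 stood apart from the other E16 teeth, with the lowest total and the lowest summed levels of the mesenchymal (1291 CPM, with a stage median of 2243), endothelial (203 CPM, with a median of 443), and epithelial (3211 CPM, with a median of 5433) markers. Results that rest on this tooth are given with and without it. One E13 library, a left tooth, has no embryo number in the header of the HTSeq table, and it is called the unnumbered left tooth.

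Aquaporins are membrane channels that let water follow osmotic gradients across cells. The classical water channels, such as Aqp1, Aqp4, and Aqp5, pass mainly water, whereas the aquaglyceroporins Aqp3, Aqp7, and Aqp9 also pass glycerol and other small solutes. Aqp3 is known from the basolateral membranes of stratified epithelia and the collecting duct, Aqp5 from the apical membranes of salivary and lacrimal glands, and Aqp11 from the endoplasmic reticulum.

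Of the 8 genes, Aqp3 had the level that increased, Aqp4 fell after E13, and Aqp1, Aqp9, and Aqp11 had no stage difference past the threshold in the fit of 21 teeth. Aqp5, Aqp7, and Aqp8 were at or close to 0 in the HTSeq counts. The filter on low counts (filterByExpr of edgeR, with a minimum of 10 counts) was passed by 5 of the 8 genes, and Aqp5, Aqp7, and Aqp8 did not pass it. The filter selects genes by their counts, so the number that passed says nothing about the family. Levels are CPM, the usual measure of the counts of a gene relative to the library total, with the totals scaled by TMM. Some teeth share an embryo, and p values measure the spread between teeth.

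The gene Aqp3 lies on chromosome 4 (GRCm38, chr4:41092722-41098183, minus strand), and Aqp7 lies 44.6 kb beyond its 3′ end on the same strand (chr4:41033074-41048139). The 250 bases before the first start site of each gene are shown because these neighboring aquaglyceroporins had opposite readouts in the HTSeq table, with Aqp3 the highest of the family at E16 and Aqp7 near 0. In the salmon table Aqp7 was not near 0, with a mean of 6.43 CPM at E13, so that this contrast holds for the HTSeq table only. The bases are from RefSeq on GRCm38.p6, read in the direction of transcription, and the capitals mark matches to the motifs searched.

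Aqp3 promoter, chr4:41098184-41098433, minus strand: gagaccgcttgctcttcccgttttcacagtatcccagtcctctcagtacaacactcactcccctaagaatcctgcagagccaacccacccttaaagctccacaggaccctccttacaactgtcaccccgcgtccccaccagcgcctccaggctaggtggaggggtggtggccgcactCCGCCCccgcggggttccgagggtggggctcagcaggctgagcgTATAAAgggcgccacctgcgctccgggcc

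Aqp7 promoter, chr4:41048137-41048386, minus strand: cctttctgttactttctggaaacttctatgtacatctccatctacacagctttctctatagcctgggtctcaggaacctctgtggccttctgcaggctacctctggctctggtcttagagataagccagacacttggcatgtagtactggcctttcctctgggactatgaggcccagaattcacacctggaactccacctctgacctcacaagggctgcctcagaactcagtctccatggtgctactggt

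The Aqp3 stretch has 64% G and C, and the Aqp7 stretch has 50.8%. Both strands were searched, over 300 bases that also include 50 bases after the start, for the TATA box (TATAAA), the GC box (GGGCGG), the AP-1 motif (TGANTCA), and a Grainyhead-like motif (AACCGGTT). In Aqp3, a TATA box began 29 bases before the start and a GC box, on the opposite strand, 73 bases before it. The stretch of Aqp7 had none of the 4 motifs, and that of Aqp3 had neither the AP-1 nor the Grainyhead-like motif. RefSeq gives 2 promoters for Aqp7 and 1 for Aqp3, and only the first of Aqp7 was searched. Among 32544 RefSeq promoters of the same length, 13.6% held the TATA box, 35.9% the GC box, 7.79% the AP-1 motif, and 0.147% the Grainyhead-like motif. A match describes the letters and does not show a binding site.

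Aqp3, an aquaglyceroporin of stratified epithelia, was higher at each later stage. At E13 the counts of the 7 teeth ranged from 54 to 131, with a median of 107, and the levels from 2.87 to 5.5 CPM. At E14 the counts ranged from 123 to 406, with a median of 233, and the levels from 5.31 to 16.7 CPM. At E16 the counts ranged from 737 to 1570, with a median of 1132, and the levels from 32.7 to 58.3 CPM. Each E16 tooth was above each E14 tooth, and 6 of the 7 E14 teeth were above all the E13 teeth, the exception being the right tooth of embryo 5.

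The mean level of Aqp3 was 4.36 ± 1.14 CPM at E13, 10.2 ± 3.81 CPM at E14, and 45.1 ± 10.3 CPM at E16 (SD, n = 7 each). In the fit of the 21 teeth, the log2 fold change was 1.23 (SE 0.21) from E13 to E14, 2.14 (SE 0.20) from E14 to E16, and 3.37 (SE 0.22) from E13 to E16. These differences chose the gene. Of all 19101 genes that passed the filter, 5.83% had every E16 tooth above every E14 tooth. Leaving out each tooth in turn kept the E13 to E16 value of Aqp3 between 3.30 and 3.44. Teeth of 1 stage also differed from each other, and the E14 teeth spanned the widest range relative to their mean, with a coefficient of variation of 37.3% at E14 against 26.2% at E13 and 22.8% at E16. Embryo 6 at E14 had 406 counts in its left tooth and 176 in its right, so that this embryo held the highest and the second lowest E14 level (16.7 and 7.32 CPM, with 5.31 CPM in the lowest tooth).

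**Figure D1:**
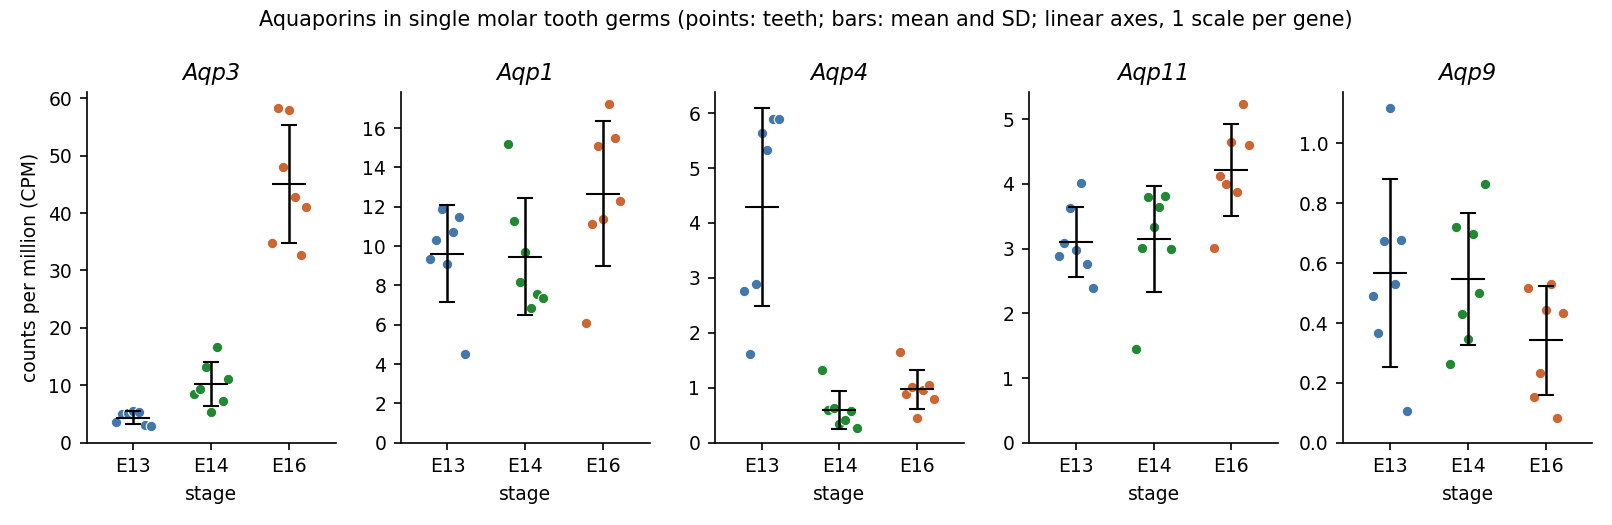
Levels of the 5 aquaporins that passed the count filter, in CPM on linear axes that start at 0, by stage, with 1 point for each of 7 teeth and the mean and SD in black. Aqp3 goes from a mean of 4.36 CPM at E13 to 45.1 CPM at E16, and Aqp4 has all E14 teeth below all E13 teeth.

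Aqp4, the main water channel of astrocytes that is also found in skeletal muscle and some epithelia, fell between E13 and E14. Its counts at E13 ranged from 35 to 139 with a median of 111, at E14 from 7 to 30 with a median of 14, and at E16 from 12 to 35 with a median of 23. All 7 E14 teeth were below all 7 E13 teeth, a pattern that 3.55% of the tested genes had. At E16, 6 of 7 teeth were below all E13 teeth, and the left tooth of embryo 3, with 1.65 CPM, was just above the lowest E13 tooth, the left tooth of embryo 2 with 1.61 CPM.

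The mean level of Aqp4 was 4.29 ± 1.8 CPM at E13, 0.594 ± 0.348 CPM at E14, and 0.971 ± 0.361 CPM at E16 (SD, n = 7 each). From E13 to E14 the log2 fold change was -2.85 (SE 0.35, adjusted p = 1.84e-06, edgeR quasi-likelihood test with Benjamini-Hochberg adjustment over 19101 genes), and the adjusted p ranged from 4.87e-15 to 1.37e-05 over the 29 settings tried. From E13 to E16 it was -2.15 (SE 0.33, edgeR adjusted p = 1.16e-05). Between E14 and E16 the value was 0.70 (SE 0.36, edgeR adjusted p = 0.151), with an adjusted p of 0.0298 without the right tooth of embryo 1 at E14, whose 1.32 CPM was over the other E14 teeth at 0.275 to 0.625 CPM. A gene of the annotation, AC133525.2, lies over Aqp4 on the opposite strand, with 0 shared exon bases.

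The E13 teeth were themselves uneven in Aqp4, with 3 teeth at 1.61 to 2.89 CPM and 4 teeth at 5.32 to 5.9 CPM. Of 7 skeletal muscle markers tested, 3 were lower at E14 than at E13 and none was higher, where 8.47% of all genes were called lower and 11.3% higher, and all 8 of the list had counts at each stage. Their summed level was 21.3 to 32.5 CPM at E14 and 17.4 to 73.9 CPM at E16. At E13 it was 366 CPM in the left tooth of embryo 7 and between 24.5 and 72.8 CPM in the other E13 teeth. The E13 tooth with the lowest muscle sum, the unnumbered left tooth at 24.5 CPM, had 5.89 CPM of Aqp4, the second highest level of the stage. The highest level, 5.9 CPM, was in the right tooth of embryo 9, with the second highest muscle sum (72.8 CPM). The left tooth of embryo 7, with the highest sum, had 5.32 CPM of Aqp4. Without the tooth of embryo 7, the change of Aqp4 from E13 to E14 was -2.79 (SE 0.36, edgeR adjusted p = 6.69e-06). In that fit 2 of the 7 muscle markers were lower and none higher. Their median log2 fold change from E13 to E14 was -0.29, in place of -1.74 with the tooth. Of the astrocyte markers, Slc1a2, a glutamate transporter, was lower at E14 (10.6 ± 3.27 CPM at E13 and 6.19 ± 0.774 CPM at E14, n = 7 each, edgeR adjusted p = 0.00161), as was the glutamate transporter Slc1a3 (63.6 ± 11.4 and 46.5 ± 9.79 CPM, edgeR adjusted p = 0.00733). Gfap, the defining filament of astrocytes, did not pass the count filter, and the third tested marker, Aldh1l1, was not called. The summed astrocyte markers were at 53.6 to 90.5 CPM at E13, 46 to 74.8 CPM at E14, and 56.7 to 67.5 CPM at E16. The 8 Schwann cell and neuron markers, with 1 higher and 1 lower at E14 (1 and 2 if embryo 3 of E16 was left out), had sums of 23.1 to 33.5 CPM at E13 and 26 to 34.9 CPM at E14. The part of these cell types in the Aqp4 values was not tested.

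Aqp1, the water channel of red cells and capillary endothelium, had no called stage difference in the fit of all teeth. Its counts ranged from 85 to 270 with a median of 229 at E13, from 167 to 346 with a median of 210 at E14, and from 129 to 390 with a median of 325 at E16. The stages overlapped in each comparison, although 4 of 7 E16 teeth were above all E13 teeth. The means were 9.6 ± 2.47, 9.46 ± 2.98, and 12.7 ± 3.72 CPM (SD, n = 7 each). The log2 fold change was -0.02 (SE 0.21, edgeR adjusted p = 0.953) from E13 to E14 and 0.42 (SE 0.21, edgeR adjusted p = 0.145) from E14 to E16.

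One tooth decided the call for Aqp1 at E16. The left tooth of embryo 3 had 6.07 CPM, whereas the other E16 teeth had 11.1 to 17.2 CPM, and without it Aqp1 was higher at E16 than at E14 by 0.56 (SE 0.19, edgeR adjusted p = 0.0227) and than at E13 by 0.53 (SE 0.19, edgeR adjusted p = 0.022). The E14 to E16 difference also passed without the right tooth of embryo 1 at E14, at 0.59 (SE 0.21, edgeR adjusted p = 0.0364). Without the unnumbered left tooth, the lowest E13 tooth at 4.51 CPM, the E13 to E16 value was 0.29 (SE 0.19, edgeR adjusted p = 0.254). Per 1000 CPM of the 8 endothelial markers summed, Aqp1 had a median of 31 CPM at E13, 20.2 CPM at E14, and 29.1 CPM at E16, with overlapping teeth. Of the 8 endothelial markers, 2 rose between E13 and E16 (4 without the left tooth of embryo 3) and none fell, where 21.6% of all genes were called higher. The red cell markers had a median sum of 300 CPM at E13, 177 CPM at E14, and 55 CPM at E16. Between E13 and E16, 2 of 8 were higher and 2 of 8 lower, where 21.6% of all genes were called higher and 19.6% lower. Most of the sum at E13 was the embryonic globin Hbb-y, with means of 284 ± 62.4 CPM at E13, 97.5 ± 14.6 CPM at E14, and 1.79 ± 0.626 CPM at E16, whereas the globin Hbb-bt had 24.8 ± 7.36, 45.7 ± 9.17, and 36.4 ± 9.92 CPM (SD, n = 7 each). The part of red cells in the Aqp1 values was not tested.

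Aqp11, a channel of the endoplasmic reticulum, was low at all stages, with means of 3.1 ± 0.544 CPM at E13, 3.15 ± 0.824 CPM at E14, and 4.21 ± 0.706 CPM at E16 (SD, n = 7 each). The counts ranged from 45 to 98 at E13, from 33 to 97 at E14, and from 64 to 128 at E16. The E16 teeth were the highest, with 6 of 7 above all the E14 teeth and 4 of 7 above all the E13 teeth. The log2 fold change was 0.02 (SE 0.18, edgeR adjusted p = 0.954) from E13 to E14, 0.42 (SE 0.18, edgeR adjusted p = 0.0859) from E14 to E16, and 0.44 (SE 0.18, edgeR adjusted p = 0.0545) from E13 to E16. The last value lay beside the threshold of 0.05, and it passed in 8 of the 30 settings tried, with an adjusted p between 0.0151 and 0.128. Among these were DESeq2 in place of edgeR and the salmon table, and also the fit without the left tooth of embryo 3, with 0.52 (SE 0.18, edgeR adjusted p = 0.0193). That fit also called the E14 to E16 difference, at 0.50 (SE 0.18, edgeR adjusted p = 0.0321).

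Aqp9, an aquaglyceroporin best known from hepatocytes, was scarce. Its counts ranged from 2 to 24 at E13, from 6 to 22 at E14, and from 2 to 12 at E16, and the mean levels were 0.567 ± 0.313, 0.546 ± 0.22, and 0.342 ± 0.183 CPM (SD, n = 7 each). The stages overlapped, and the log2 fold change from E13 to E16 was -0.74 (SE 0.43, edgeR adjusted p = 0.18). With such counts the interval of this difference, from -1.59 to 0.11 on the log2 scale (95%), includes no change. The genes Gm32511 and Gm47268 lie over Aqp9 on the opposite strand with 0 shared exon bases.

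**Figure D2:**
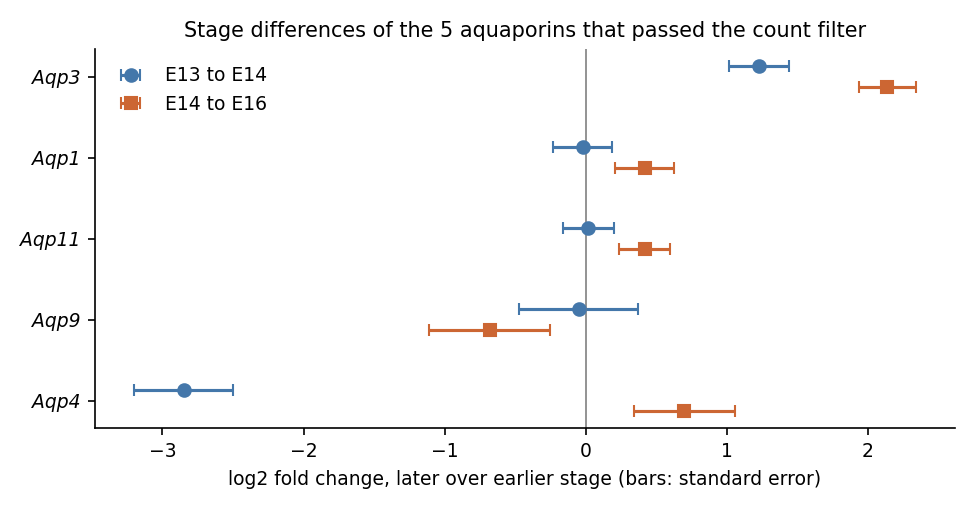
Log2 fold changes with their standard errors for the 5 aquaporins that passed the filter, from E13 to E14 (circles) and from E14 to E16 (squares), in the fit of 21 teeth. Aqp3 is positive in both steps (1.23 and 2.14), and Aqp4 is negative in the first (-2.85); the values of Aqp3 chose the gene and have no test.

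Over the 4 filtered genes that the choice did not use (Aqp1, Aqp4, Aqp9, and Aqp11), 1 was called between E13 and E14, where 19.7% of all tested genes were called. Between E14 and E16 none was called by edgeR or by DESeq2, where 28.1% of all genes were called, and the unadjusted p was below 0.05 for 1 of them in edgeR and for 3 in DESeq2. Between E13 and E16, edgeR called 1 (Aqp4) and DESeq2 called 2 (Aqp4 lower and Aqp11 higher), where edgeR called 41.3% of all genes. With 4 genes, a count of 0 to 2 cannot be set apart from these shares. For the side of the jaw, 0 of the 5 filtered aquaporins differed between left and right teeth, where 0% of all genes were called by edgeR, with 306 of 19101 genes at an unadjusted p below 0.05 and 12 genes called by DESeq2. For Aqp3, left over right was 0.22 (SE 0.17, edgeR adjusted p = 1).

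In the HTSeq counts the remaining aquaporins were at or near 0, whereas the salmon table differed for Aqp7 (given below). Aqp5, the apical water channel of salivary glands, had 9 counts in the 7 E13 teeth together, 4 in the E14 teeth, and 4 in the E16 teeth. The highest tooth was the unnumbered left E13 tooth with 5 counts, and the 4 counts at E16 were all in the left tooth of embryo 5, so that 6 of the 7 E16 teeth had none. Aqp7, an aquaglyceroporin of adipocytes, had 9 counts in the 21 teeth, with 4 of them in the left tooth of embryo 3 at E16. Aqp8, a channel for water, ammonia, and peroxide, had 0 counts in all 21 teeth. Taking 3 counts as the limit that a count of 0 allows, this corresponds to a level of up to 0.111 to 0.168 CPM in a single library and 0.00604 CPM over the pooled libraries, which covers counting error only.

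The 4 other mouse aquaporins were likewise near 0. Mip, the lens aquaporin, had 19 counts at E13, 13 at E14, and none at E16, and it shares 1223 exon bases with the lincRNA gene Gm26847 on the opposite strand, so that its reads cannot be separated from those of Gm26847 without strand. Aqp6 had 5 counts at E14 and 5 at E16, each time in a single tooth, and Aqp2 and Aqp12 had none in any tooth.

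To order the genes, the levels were divided by the exon length of each gene, joined over all its annotated transcripts (GENCODE M21). The order depends on this length, which can exceed that of the transcript expressed. At E13 the medians were 3.91 CPM per kb for Aqp1, 2.74 for Aqp3, 0.853 for Aqp4, 0.317 for Aqp11, and 0.128 for Aqp9. Aqp1 and Aqp3 overlapped, and both were above Aqp4 in every tooth, while the neighbors below overlapped. At E14 Aqp3 (5.11 CPM per kb) and Aqp1 (3.12) overlapped again and were above the rest, with Aqp11 at 0.353, Aqp9 at 0.12, and Aqp4 at 0.0934. At E16 Aqp3 was at 23.4 CPM per kb and above Aqp1 (4.68) in every tooth, Aqp1 was above Aqp11 (0.437), and Aqp11 was above Aqp4 (0.153), which overlapped with Aqp9 (0.105). Hence Aqp1 had the highest median at E13 and Aqp3 the highest at E14 and E16, with the teeth of the 2 genes separate only at E16.

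Because Aqp3 is known from epithelia, its levels were set beside those of epithelial markers in the same teeth. Of all genes tested, 11.3% were called higher from E13 to E14, and 28.1% were called in either direction from E14 to E16. From E13 to E16, 21.6% were called higher and 19.6% lower. All 10 markers of epithelium (such as the keratins Krt5 and Krt14 and the cadherin Cdh1) rose from E13 to E14, from E14 to E16, and from E13 to E16, with a median log2 fold change of 1.58 over the whole interval, against -0.01 for all genes, and all 10 rose also without the left tooth of embryo 3. The summed level of the 10 markers had a median of 1498 CPM at E13 (1263 to 1870 CPM), 2861 CPM at E14 (2495 to 3191 CPM), and 5433 CPM at E16 (3211 to 5888 CPM). The 12 suprabasal and cornifying markers went from a median sum of 52.1 CPM at E13 to 91.5 CPM at E14 and 1101 CPM at E16 (800 to 1640 CPM), and 10 of the 11 tested rose between E13 and E16. Among the 10 was Cnfn, which had 0 CPM at E13 and E14. Cnfn passed the count filter through its E16 counts alone, so that its rise was fixed by the filter. Of the other cell types, 5 of 8 dental mesenchyme markers fell between E13 and E16 and none rose (1 rose without the left tooth of embryo 3 at E16), all 8 macrophage markers rose, 3 Schwann cell and neuron markers rose and 4 fell, 2 of 4 tested cartilage markers rose and 2 fell, and 2 of 4 tested bone markers rose. The part of these changes in that of Aqp3 was not tested.

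The change of Aqp3 exceeded those of the 10 epithelial markers and lay within the range of the suprabasal ones. The rise over these teeth chose Aqp3 and not the markers, so that this order is a description and not a test. Its stage median at E16 was 8.53 times that at E13, and the 10 epithelial markers had 1.9-fold (Epcam) to 6.08-fold (Krt15) higher medians at E16, so that none reached the value of Aqp3. Among the 10 suprabasal markers with a median above 0 at E13, 6 exceeded Aqp3. These were Krt13 (1370-fold) and Krt4 (895-fold), keratins of the oral lining, and Krtdap (36.9-fold), Krt1 (34.7-fold), Krt6a (29.1-fold), and Dsg1a (13.1-fold). The E13 medians of Krt13 and Krt4 were only 0.386 and 0.127 CPM. That of Krt4 lies within the 0.111 to 0.168 CPM that a count of 0 allows in a single library. The folds of Krt13 and Krt4 are therefore imprecise. The 4 below Aqp3 were Krt10 (4.82-fold), Sbsn (2.99-fold), Lor (2.22-fold), and Grhl3 (1.23-fold). Cnfn, a gene of the cornified envelope, had a median of 0 at E13 and 9.36 CPM at E16.

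Relative to the summed epithelial markers of the same tooth, Aqp3 had a median of 2.72 CPM per 1000 CPM at E13 (1.91 to 4.07), 3.26 at E14 (2 to 5.77), and 9.04 at E16 (6.55 to 10.8). The E13 and E14 teeth overlapped on this scale, and each E16 tooth was above each E14 tooth. The values of Aqp3 that chose the gene enter this ratio, so that the separation is a description. The share of all genes with such a ratio is not given. The left tooth of embryo 3, the lowest E16 tooth in epithelial markers, had the highest value. Relative to the suprabasal markers, Aqp3 was instead lower at E16, with 42.1 CPM per 1000 CPM (25.8 to 57.4) against 106 at E14 (67.1 to 182) and 89.8 at E13 (57.5 to 99.1).

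**Figure D3:**
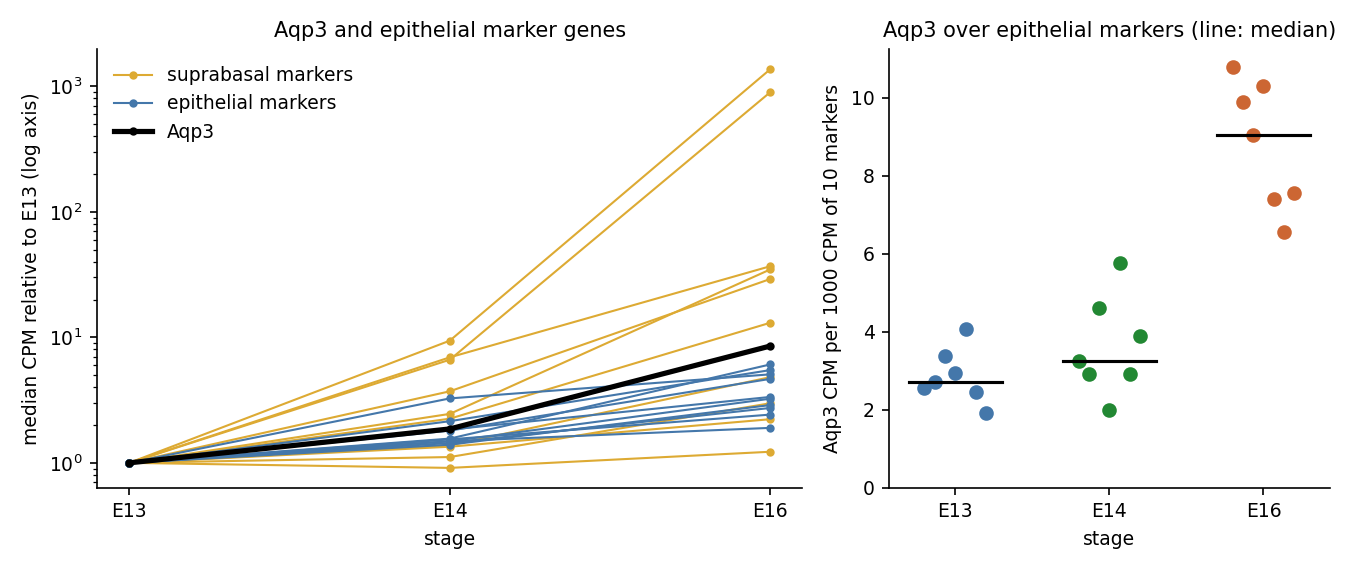
Left, stage medians relative to E13 on a log axis for Aqp3 (black), 10 epithelial markers (blue), and 10 suprabasal markers (yellow), with Cnfn left out because its E13 median is 0. Right, Aqp3 per 1000 CPM of the 10 epithelial markers in each of 7 teeth per stage, where the medians are 2.72, 3.26, and 9.04 and the E16 teeth are above all others. The stage values of Aqp3 chose the gene and have no test.

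The genes whose log2 CPM followed Aqp3 most closely over the 21 teeth were Mcc (Pearson r = 0.979), Map7 (0.979), Etl4 (0.978), Trp63 (0.977), and Dgka (0.973). Trp63, the master regulator of stratified epithelia and one of the 10 epithelial markers, went from 127 ± 11.9 CPM at E13 to 337 ± 38.8 CPM at E16 (SD, n = 7 each). Map7 encodes a microtubule binding protein of epithelial cells, and Dgka a diacylglycerol kinase. All 5 differed between stages, which the correlations include. With the stage means removed, the most similar genes were Rabac1 (0.821), Mcc (0.816), Kcnj15 (0.796), Git2 (0.790), and Etl4 (0.788), so that Mcc and Etl4 were in both lists of 5. The teeth share libraries and depth between genes, and with Spearman's correlation only 1 and 2 of the 5 genes stayed among the top 5, so that the order is a description.

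The E15 teeth of the salmon table placed Aqp3 between the E13 and E16 teeth. Its estimated counts ranged from 276 to 662 with a median of 460, and its levels from 15.4 to 32.1 CPM. In the same table the E13 teeth ranged from 3.16 to 6.32 CPM and the E16 teeth from 38 to 66.8 CPM, so that the stages did not overlap. The mean was 4.88 ± 1.29 CPM at E13 (n = 7), 24.8 ± 6.24 CPM at E15 (n = 6), and 52.9 ± 10.8 CPM at E16 (n = 7). The log2 fold change was 2.34 (SE 0.19) from E13 to E15 and 1.09 (SE 0.18) from E15 to E16. Of the 13447 genes tested in this table, 8.94% had every E15 tooth above every E13 tooth, and 1.87% had every E16 tooth above every E15 tooth. The labels name no sequencing batch for the E15 libraries. These libraries were deposited later than those of E13 and E16, so that the stage E15 and a batch, if there was one, cannot be told apart.

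Of the 5 other aquaporins tested in the salmon table, 2 were called between E13 and E15, where 26.8% of all genes were called. Aqp4 was lower at E15 than at E13 by a log2 value of -1.76 (SE 0.36, edgeR adjusted p = 0.00075), with 5 of 6 E15 teeth below all E13 teeth. Aqp4 had 12 to 42 estimated counts in the E15 teeth, and its mean was 1.46 ± 0.57 CPM (n = 6). Aqp11 was higher at E15 by 0.48 (SE 0.17, edgeR adjusted p = 0.0451), a call that held in 7 of 24 settings. Its mean was 5.21 ± 1.37 CPM at E15, with the left tooth of embryo 5 at 7.88 CPM and the others at 3.9 to 5.08 CPM. None of the 5 was called between E15 and E16 by edgeR or by DESeq2, where 6.33% of all genes were called, and 1 had an unadjusted p below 0.05 in each. This was Aqp9, with 0 to 39 estimated counts in the E15 teeth and 1 to 12 in the E16 teeth and a log2 fold change of -1.52 (SE 0.64, edgeR adjusted p = 0.195), which passed without the left tooth of embryo 5 at E15 (edgeR adjusted p = 0.0476).

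**Figure D4:**
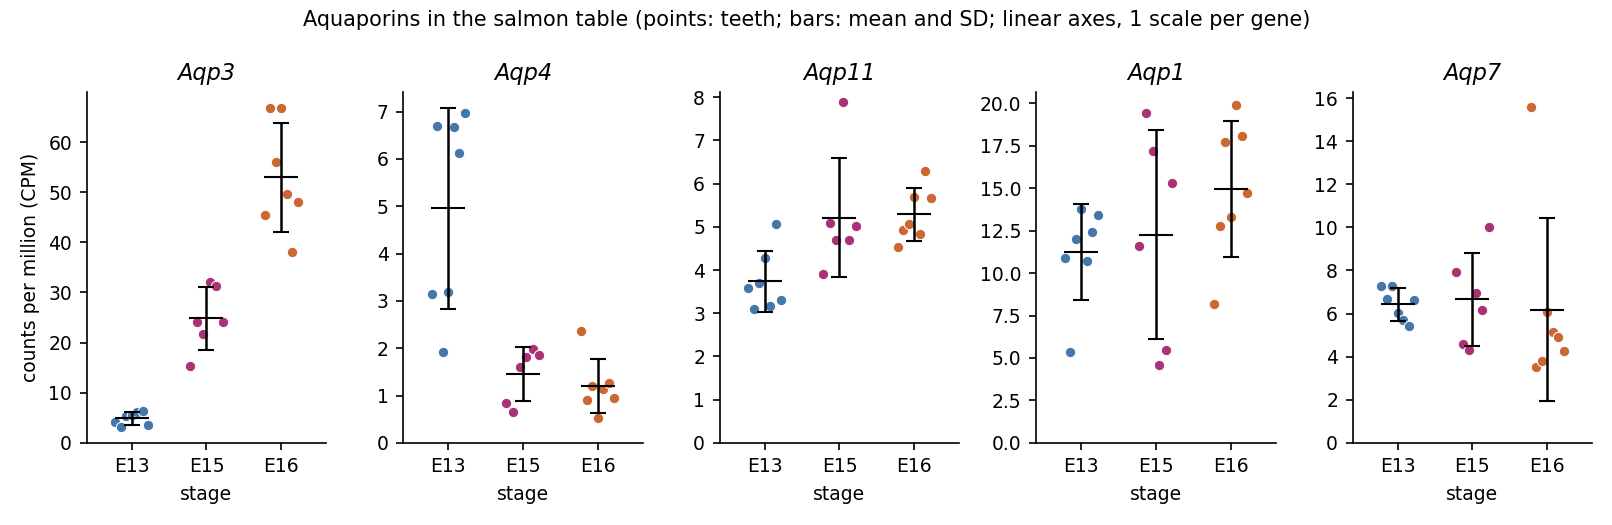
Levels of 5 aquaporins in the salmon table, in CPM on linear axes that start at 0, for 7 teeth of E13, 6 of E15, and 7 of E16, with the mean and SD in black. Aqp3 at E15 (15.4 to 32.1 CPM) is between the other stages, Aqp4 is already low at E15, and Aqp7 has levels near 6 CPM at each stage.

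The 2 tables differed for Aqp7. Over the 13 teeth of E13 and E16 named alike in both tables, Aqp7 had a mean of 0.538 HTSeq counts and 119 salmon counts, whereas Aqp3 had 648 and 627, Aqp1 276 and 270, Aqp11 89.8 and 91.9, Aqp4 55 and 53.7, and Aqp9 11.1 and 10.2. The remaining E13 tooth is unnumbered in the HTSeq table and the left tooth of embryo 10 in the salmon table, and the headers do not show whether these are the same tooth. Apart from Aqp7, their counts were close, with 85 and 85 for Aqp1, 111 and 106 for Aqp4, 54 and 50 for Aqp3, 45 and 49 for Aqp11, and 2 and 2 for Aqp9. Each had the lowest E13 total of its table. In the salmon table the mean of Aqp7 was 6.43 ± 0.748 CPM at E13, 6.66 ± 2.14 CPM at E15, and 6.18 ± 4.23 CPM at E16, without a called difference between these stages. Without the left tooth of embryo 3 at E16, which had 15.6 CPM, Aqp7 was lower at E16 than at E13 (log2 fold change -0.48, SE 0.19, edgeR adjusted p = 0.0447). In the HTSeq table none of the 4 adipocyte markers passed the count filter, with summed levels of at most 1.41 CPM in any tooth. Of these markers, 2 were tested in the salmon table, with sums of 2.53 to 8.35 CPM over its teeth. There 1 was called higher at E15 and at E16 than at E13, where 18.3% and 21.7% of all genes were called higher. Of the 14170 genes in both tables, 133 had a mean below 1 in HTSeq and of at least 50 in salmon, with Aqp7 among them, and 89 of the 133 are olfactory or vomeronasal receptor genes. The reason for the difference was not tested, and a level of Aqp7 in the tooth is therefore not given.

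Genes that work beside the aquaporins were examined as lists. Of all genes, 21.6% were called higher and 19.6% lower between E13 and E16. Glycerol, which Aqp3 lets into cells, is handled by 21 genes of a list that were all measured, and 10 rose and 5 fell between E13 and E16 (12 and 6 without the left tooth of embryo 3), with a median log2 fold change of 0.30. Of the called genes with the largest changes, the acyltransferases Gpat3 (0.537 ± 0.279 to 1.43 ± 0.472 CPM) and Dgat2 (4.31 ± 1.04 to 10.1 ± 2.47 CPM) and the lipase Pnpla2 (7.21 ± 0.936 to 13.8 ± 5.06 CPM) were higher at E16. The glycerol 3-phosphate dehydrogenase Gpd1 was lower (2.37 ± 0.57 to 1.34 ± 0.365 CPM). All 4 had log2 fold changes between -0.83 and 1.41.

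Of the 24 genes for ion transport and cell volume, 13 rose and 4 fell between E13 and E16, with a median of 0.32. Of all genes, 21.6% were called higher and 19.6% lower. Kcnn4, a calcium-activated potassium channel, changed most (0.765 ± 0.326 CPM at E13 and 4.57 ± 1.35 CPM at E16, log2 fold change 2.56, SE 0.28, edgeR adjusted p = 4.87e-08). It was followed by Lrrc8e (1.44), a subunit of the volume-regulated anion channel, the potassium channel Kcnma1 (1.42), and Trpv4 (1.11), an osmosensitive calcium channel.

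Hydrogen peroxide, which Aqp3 and Aqp8 are known to pass, has 19 genes on its list, 16 of them tested, of which 4 rose and 3 fell with a median of 0.03 (6 and 4 without the left tooth of embryo 3). Duox1, a peroxide-producing oxidase of epithelia, went from 1.88 ± 0.499 to 10.9 ± 2.32 CPM (log2 fold change 2.53, SE 0.18, edgeR adjusted p = 3.45e-11), and the secreted peroxidase Gpx3 from 4.65 ± 0.665 to 20.3 ± 11.8 CPM. The oxidase subunit Cyba (0.67) and the lipid peroxidase Gpx4 (0.65) followed. In the osmotic stress list, 3 of 7 tested genes rose and 2 fell (3 and 1 without the left tooth of embryo 3, and also without the left tooth of embryo 7 at E13), among them Hspa4l (1.57), a chaperone, and Nfat5 (0.57), the transcription factor of the osmotic response, which were higher, and Akr1b3 (-0.49), which makes sorbitol and was lower, while the taurine transporter Slc6a6 changed by 0.31.

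The dystrophin complex is known to anchor Aqp4 at the membrane, and 7 of its genes were tested. Between E13 and E14, the interval of the fall in Aqp4, 1 of them rose (2 without the left tooth of embryo 3 at E16) and none was called lower, where 11.3% of all genes were called higher and 8.47% lower. Between E13 and E16, 4 rose and 1 fell, with a median of 0.46, and the largest were Dmd (1.39, from 33.9 ± 2.77 to 88.6 ± 11.1 CPM), Sntb1 (1.15), Dtna (-0.98), and Dag1 (0.52). In each list the shares can be read against all genes, of which 21.6% were called higher and 19.6% lower between E13 and E16.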

How the data were processed

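RNAseq counts per tooth were used from 21 teeth of E13, E14, and E16 in the HTSeq table and 20 of E13, E15, and E16 in the salmon table. The authors removed bad reads (FastQC, AfterQC, Trimmomatic), mapped the rest to GRCm38 using STAR, and deposited whole-number counts per gene from HTSeq, without normalization. The deposited estimated counts of the salmon table are already whole numbers, and its index and choice of genes are not given in the sources used here. Whether strand was used in counting is not given either. The E13 column without an embryo number was matched by its name to the stage and side only. A seventh E15 sample of the labels is not analysed here.

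Stages were compared in edgeR 4.0.16 (R 4.3.3) by its quasi-likelihood test, with a factor for stage, TMM normalization, filterByExpr (19101 genes of the HTSeq table and 13447 of the salmon table kept), and Benjamini-Hochberg adjustment over all tested genes, at an adjusted p below 0.05. Standard errors are the log2 fold change divided by the root of F. The salmon table was fitted separately, so that E15 was compared only within it, and side was tested with stage as a factor. Teeth of 1 embryo were counted as separate replicates, and their summed counts are among the alternatives. Levels are CPM, per kb of exon where genes are compared, and correlations use log2 CPM with a prior count of 0.5. Gene positions and exon lengths are from GENCODE M21, promoters from RefSeq. The coefficient of variation between teeth was 21.2% in the HTSeq fit and 22.7% in the salmon fit. The test was tested on simulated data.

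The 8 genes, the gene lists, and the tests were chosen with earlier results of these data known. Named from each list were at most 4 called genes with the largest change between E13 and E16, and as most like Aqp3 the 5 genes with the highest Pearson correlation. Single marker genes set beside Aqp3 and Aqp4 were named after their values were seen. The alternatives were DESeq2 (version 1.42.0), RLE size factors, other filters, side as a factor, summed embryos, only the stages compared, the salmon table, and each tooth left out. DESeq2 adjusted p values given as missing were not counted.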

Additional observations from a re-analysis of the deposited data

Results flagged for a closer look

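In 34 groups of teeth, the highest or lowest tooth was compared with the range of its group (Dixon's criterion at 95%), and 8 teeth were far from the others. Chance flags about 1 in 20 groups. Several of the 8 are the same tooth, and 13 teeth of E13 and E16 are named alike in both tables, so that the flags are not independent.

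At E13 the unnumbered left tooth had 4.51 CPM of Aqp1, with the others at 9.08 to 11.9 CPM, and 0.265 CPM of Aqp5, with the others at up to 0.092 CPM. In the salmon table the left tooth of embryo 10 had 5.36 CPM of Aqp1, with the others at 10.7 to 13.8 CPM. It may be the unnumbered tooth, in which case both Aqp1 flags come from the same tooth. At E14 the right tooth of embryo 1 had 1.32 CPM of Aqp4, with the others at 0.275 to 0.625 CPM, and 1.45 CPM of Aqp11, with the others at 2.99 to 3.82 CPM. At E15 the left tooth of embryo 5 had 7.88 CPM of Aqp11. At E16 the left tooth of embryo 3 had 2.37 CPM of Aqp4 in the salmon table, with the others at 0.526 to 1.27 CPM, and 15.6 CPM of Aqp7, with the others at 3.51 to 6.05 CPM.

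Aqp7 was also noted because the salmon table gave it a median of 5.85 CPM over the E13 and E16 teeth, where the HTSeq table had almost no counts. The cause was not tested.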

How the results depend on the processing

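The values of Aqp3 kept their direction in all comparisons of stages and alternatives computed, as did the fall of Aqp4 from E13, which also stayed past the threshold. The number of changed genes between E13 and E14 was 3767, and between 3077 and 5855 with each tooth left out in turn, with the highest value without the left tooth of embryo 3 at E16. The same tooth gave the highest value between E15 and E16, with a range of 671 to 1382 around 851. Between E13 and E16 the salmon table gave 4889 genes in place of 7887, with fewer genes tested. Between left and right teeth DESeq2 called 12 genes in place of 0. The values that changed sign were close to 0. With teeth of 1 embryo summed, the E13 to E14 value was 0.03 for Aqp1 and -0.02 for Aqp11. With each tooth left out in turn, the E13 to E14 value ranged from -0.18 to 0.04 for Aqp1, from -0.23 to 0.19 for Aqp9, and from -0.03 to 0.14 for Aqp11, and that of Aqp4 between sides from -0.26 to 0.00. In the salmon table, the E13 to E15 value ranged from -0.06 to 0.29 for Aqp1 and from -0.10 to 0.15 for Aqp7, and the E15 to E16 value from -0.53 to 0.04 for Aqp7 and from -0.05 to 0.18 for Aqp11. The cause of these changes was not tested. Replicate numbers do not pair teeth across stages, since the embryos of each stage are different animals. No analysis paired across stages was possible because the stages share no embryo. Some embryos gave both a left and a right tooth, and the test of side did not pair them. At these depths a gene with 0 counts in all teeth may still be present below the limit given for Aqp8.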
